A study of Mus musculus with 16 samples.

Results

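The genes described here are the ligands, receptors and feedback inhibitors of the epidermal growth factor (EGF) receptor pathway, chosen by name. The list held 10 genes: the ligands Hbegf, Areg, Ereg and Tgfa, the receptors Egfr and Erbb2, and the inhibitors Errfi1, Lrig1, Spry2 and Spry4. A probe set was named for 9 of the 10, each with a single probe set, among 19505 named genes and 22206 probe sets in all. Areg was not analysed here, since the platform annotation used here named no probe set for it.

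The samples were BU.MPT cells, a mouse proximal tubular cell line, grown at 39 °C without interferon-γ, and 700 pg of RNA per sample was labelled for the arrays. H/R cells spent 3 h at about 1% oxygen in medium without glucose or serum, followed by 1 h back in normal culture, as a model of hypoxia and reperfusion. H/R+B12 cells were treated in the same way, and cyanocobalamin, a stable vitamin B12 compound, was added at 0.3 µM. The titles of all 8 samples with the vitamin read B12, while the descriptions of 6 of them give another number after the B, and the titles were followed here. Control+B12 cells were kept in normal culture with 0.3 µM cyanocobalamin, and control cells in normal culture alone, at 21% oxygen with 10% serum and 4.5 g/L glucose. Each of the 4 groups had 4 samples, 16 arrays in all. The labels name no separate cultures, and every p-value below therefore reflects spread among these 16 arrays, which may be technical. Precision is limited by how few arrays there are. Oxygen, glucose and serum were withdrawn and given back together, and their effects cannot be told apart.

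EGF family ligands are made as membrane proteins and released by proteases of the ADAM family. They bind the EGF receptor, which pairs with itself or with ERBB2, a partner that has no known ligand of its own, and signals through the RAS and ERK kinases. The pathway switches on its own inhibitors: ERRFI1 (also called MIG6) binds the kinase domain of the receptor, LRIG1 marks receptors for degradation, and Sprouty proteins restrain the RAS and ERK branch. In the proximal tubule, EGF receptor signalling is known for its part in regeneration after acute injury.

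All 16 arrays were similar in overall signal, with array medians between 5.21 and 5.37 on the log2 scale. The features for negative controls had medians of 5.72 to 6.23, used below as the level of background. Of 10 measured proximal tubule markers 2 (Aqp1 and Slc4a4) lay above that background in each group, while Lrp2, Cubn and Slc34a1, which define the segment, lay below it, so the labelled cell type rests on few of its markers. Of 4 epithelial genes, Cdh1, Krt8 and Krt18 were above background in each group, and the mean over the 4 ran from 7.85 to 8.17 on H/R+B12 arrays and from 7.53 to 7.75 on control+B12 arrays, while H/R (7.89 to 8.15) and control arrays (7.27 to 8.18) overlapped. Means over the proximal tubule markers overlapped too, at 4.99 to 5.36 on H/R arrays and 4.73 to 5.24 on control arrays. Of the 4 endothelial and 3 leukocyte markers measured, 0 were above background in any group, while the fibroblast gene Col1a1 (1 of 4) was in 3 groups and the distal nephron gene Scnn1a (1 of 5) in all. In H/R against control Slc4a4 and Krt18 rose and Aqp1 and Scnn1a fell, and the part of such markers in the results below was not tested.

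The promoters of 3 genes are shown because Egfr and Erbb2, a pair of partner receptors, differed in their response and Errfi1 had the largest. Each sequence is the 250 bases before an annotated start in RefSeq (GRCm38.p6), read 5′ to 3′ on the gene's strand, and of the 10 genes 7 were in that table. For Errfi1 2 annotated starts are shown, 1274 bases apart. The windows are chr11:16751953-16752202 (plus strand) for Egfr, chr11:98412234-98412483 (plus strand) for Erbb2, chr4:150853546-150853795 (plus strand) for the outer start of Errfi1 and chr4:150854820-150855069 (plus strand) for its inner start. Capitals mark matches, on either strand, to the motifs searched.
Egfr: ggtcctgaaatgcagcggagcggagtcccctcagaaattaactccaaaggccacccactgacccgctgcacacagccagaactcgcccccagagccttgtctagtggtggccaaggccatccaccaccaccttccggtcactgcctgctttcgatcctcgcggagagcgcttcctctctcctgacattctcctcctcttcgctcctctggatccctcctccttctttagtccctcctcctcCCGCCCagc
Erbb2: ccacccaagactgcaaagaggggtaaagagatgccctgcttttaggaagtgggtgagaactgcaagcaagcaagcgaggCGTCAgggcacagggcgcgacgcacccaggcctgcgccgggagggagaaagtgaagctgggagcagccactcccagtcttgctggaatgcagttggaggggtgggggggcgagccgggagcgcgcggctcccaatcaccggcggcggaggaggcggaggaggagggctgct
Errfi1 outer start: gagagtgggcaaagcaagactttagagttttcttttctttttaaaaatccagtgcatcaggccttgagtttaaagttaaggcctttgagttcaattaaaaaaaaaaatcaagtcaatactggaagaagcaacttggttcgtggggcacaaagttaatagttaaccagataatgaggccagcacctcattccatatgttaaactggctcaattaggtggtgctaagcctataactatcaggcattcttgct
Errfi1 inner start: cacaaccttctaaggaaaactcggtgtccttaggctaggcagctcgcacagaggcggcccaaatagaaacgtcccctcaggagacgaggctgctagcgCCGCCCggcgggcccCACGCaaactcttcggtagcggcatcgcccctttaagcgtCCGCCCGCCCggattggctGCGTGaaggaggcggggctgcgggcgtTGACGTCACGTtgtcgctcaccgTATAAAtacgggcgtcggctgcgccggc

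The motifs searched were the GC box (GGGCGG), the AP-1 site (TGANTCA), the core of the hypoxia response element (ACGTG or GCGTG), the core of the cAMP response element (TGACG), the TATA box (TATAAA) and the CArG box of serum response factor. Among all 32851 promoter windows of the same length these were found in 32.7%, 6.75%, 38.6%, 17.8%, 12.4% and 1.47%, in that order. The Egfr window held 1 GC box, starting 9 bases before the start, and the Erbb2 window 1 cAMP core, 171 bases before. The outer Errfi1 window, with 38.0% G and C, held 0 of the 6 motifs. The inner Errfi1 window, with 64.8% G and C, held 3 GC boxes, 3 hypoxia cores and 2 overlapping cAMP cores at 51 and 48 bases, the second of which overlaps the third hypoxia core. It also held a TATA box 28 bases before the start. The 2 nearer GC boxes overlap as well. These matches describe letters and not sites of binding.

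H/R raised the signal of 7 of the 9 measured genes and lowered 0, both without and with B12. Of these 7 calls, 4 held without B12 and 6 with it in all 23 other settings that kept the same threshold. Those of Hbegf, Ereg and Spry4 without B12, and of Hbegf with it, depended on the setting. In H/R against control the largest responses of the 9 were in the inhibitor Errfi1, at 3.73-fold, and in the receptor Egfr, at 3.10-fold. In H/R+B12 against control+B12 Errfi1 (3.56-fold) was followed by the dim ligand Ereg (3.08-fold) and by Egfr (2.98-fold). Of all probe sets, limma called 17.6% in H/R against control at an adjusted p under 0.05 (8.11% higher and 9.54% lower). With B12 in both arms it called 18.7% (9.04% higher and 9.61% lower). All array medians lay below all negative control medians, so more probe sets were below background than above it on each array. These shares include the dim probe sets, while Tgfa, Ereg and Spry4 were the dim ones of the 9 genes. The share among probe sets above background was not tested. The median log2 change of the 9 genes was 0.96 without B12 and 1.03 with it, beside -0.02 and -0.04 over all probe sets. Both sets of counts describe genes chosen with earlier results of these data known. In cultures measured in bulk, more RNA per cell and more cells that express a gene cannot be told apart.

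**Figure D1:**
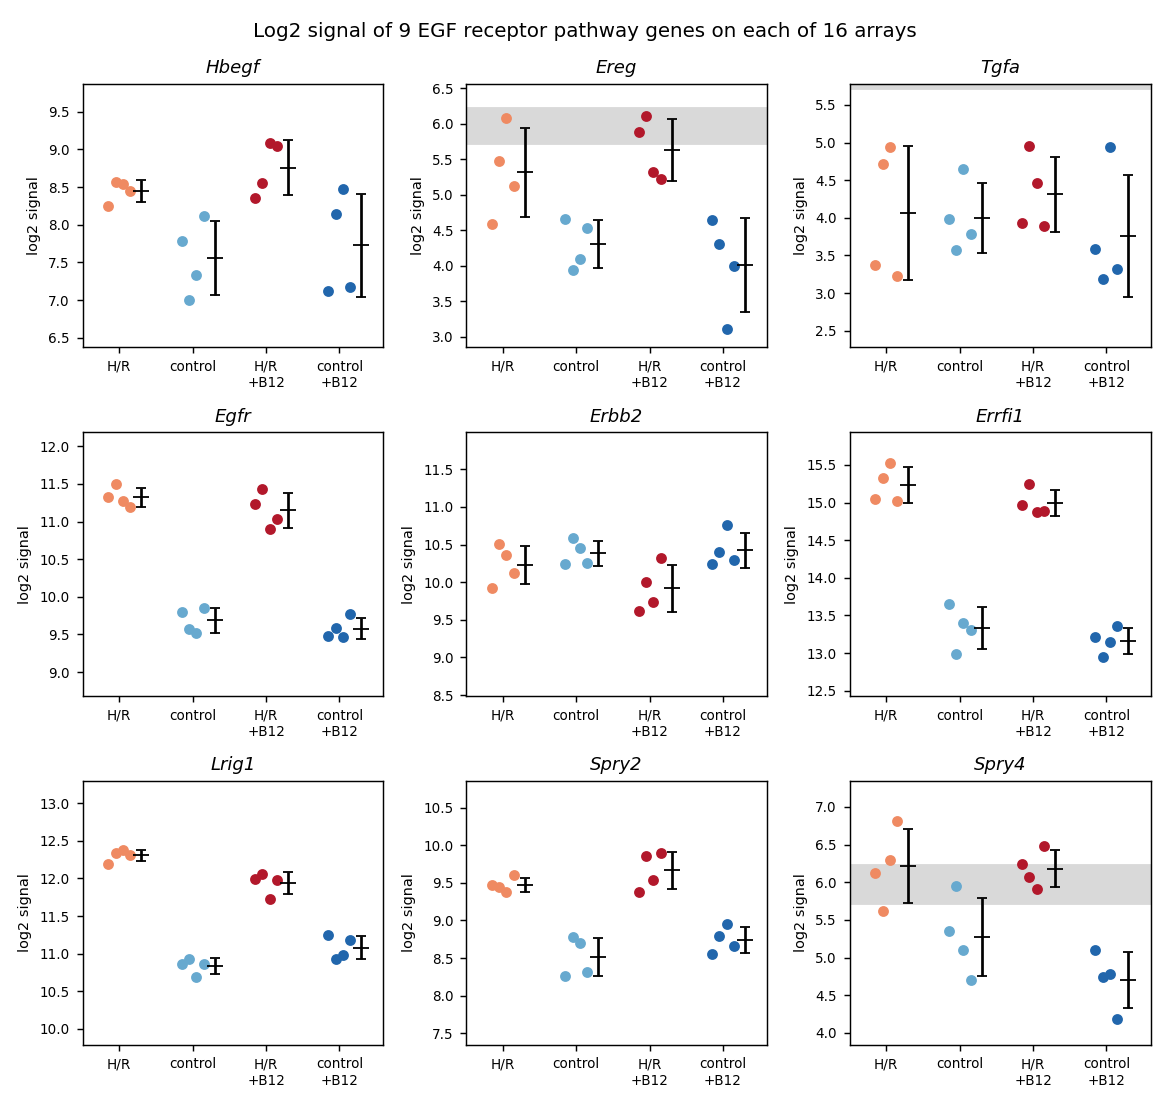
Log2 signal of each of the 9 genes on each array, by group; points are arrays, the black dash with bars is the mean ± SD of 4 arrays, and the grey band spans the negative control medians of the 16 arrays (5.72 to 6.23). Egfr, Errfi1, Lrig1 and Spry2 separate the H/R arrays from the control arrays with and without B12, while Tgfa lies below the band on every array.

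Egfr, the receptor of all the ligands listed, had log2 signals of 11.33, 11.49, 11.27 and 11.19 on H/R arrays, against 9.80, 9.57, 9.52 and 9.85 on control arrays. Every H/R array lay well above every control array. The log2 fold change was 1.63 ± 0.14 (SE, n = 4 against 4; limma adjusted p = 1.13e-06), or 3.10-fold. With B12 in both arms the signals were 11.23, 11.44, 10.90 and 11.04 on H/R+B12 arrays, against 9.48, 9.58, 9.47 and 9.77 on control+B12 arrays. The groups again did not overlap, and the log2 change was 1.58 ± 0.14 (limma adjusted p = 1.31e-06).

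Erbb2, the partner receptor, had 9.92, 10.50, 10.37 and 10.13 on H/R arrays, against 10.24, 10.59, 10.45 and 10.26 on control arrays. The groups overlapped, and the change of -0.16 ± 0.18 did not pass the test (limma adjusted p = 0.661, 95% interval -0.54 to 0.23). With B12 in both arms its signals were 9.62, 10.00, 9.73 and 10.32 on H/R+B12 arrays, against 10.24, 10.40, 10.76 and 10.30 on control+B12 arrays. There 3 of the 4 H/R+B12 arrays were below all control+B12 arrays. The difference was -0.51 ± 0.18 (limma adjusted p = 0.0623), and it passed without H/R+B12 replicate 4 (adjusted p = 0.0223), which was the highest array of its group.

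Within arrays the gap between the receptors shifted, mostly through Egfr, whose own log2 change was 1.63 without B12 and 1.58 with it. Egfr minus Erbb2 was 0.90 to 1.41 log2 units on H/R arrays and -1.02 to -0.41 on control arrays, a shift of 1.79 (two-sided exact permutation p = 0.0286, the smallest that 4 against 4 allows). With B12 it was 0.72 to 1.61 on H/R+B12 arrays and -1.29 to -0.53 on control+B12 arrays, a shift of 2.08 with the same p. Egfr alone already separated the groups in both comparisons, so these p-values add little to its own calls and do not show a change of Erbb2. These 2 tests were chosen after the values were seen, and the levels of different probe sets are not comparable, so only the shift carries meaning.

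Hbegf encodes a heparin-binding ligand that also serves as the diphtheria toxin receptor. It had log2 signals of 8.25, 8.57, 8.54 and 8.45 on H/R arrays, against 7.78, 7.004, 7.33 and 8.12 on control arrays. All 4 H/R arrays were higher, though control replicate 4 came close to them. The log2 change of 0.89 ± 0.30 (limma adjusted p = 0.049) lay just past the threshold. The call was lost without any 1 of 11 of the 16 arrays, namely control 1, 2 or 3, any H/R array or any H/R+B12 array, and the adjusted p over the 16 ran from 0.0258 to 0.157. With B12 in both arms Hbegf had 8.35, 8.56, 9.08 and 9.05 on H/R+B12 arrays, against 7.13, 8.15, 8.47 and 7.17 on control+B12 arrays. The highest control+B12 array overlapped the lowest H/R+B12 array. The change was 1.03 ± 0.30 (limma adjusted p = 0.0223), and it was lost without control+B12 1 or 4 or without H/R+B12 3 or 4 (adjusted p up to 0.0788).

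Ereg encodes epiregulin, a ligand of the EGF receptor and of ERBB4. It was dim: 1 of 4 H/R arrays and 1 of 4 H/R+B12 arrays lay above the negative control median of the same array, and 0 of 8 in the control and control+B12 groups did, so the sizes of its changes are uncertain. The H/R arrays had 4.59, 5.47, 6.08 and 5.13, against 4.65, 3.94, 4.09 and 4.53 on control arrays, with H/R replicate 1 inside the control range. The change was 1.01 ± 0.34 (limma adjusted p = 0.0486). That call held without control+B12 1 or 3, H/R 1 or H/R+B12 2, and was lost without any other single array (adjusted p up to 0.164). With B12 the groups separated, at 5.88, 6.11, 5.32 and 5.22 on H/R+B12 arrays, against 4.65, 4.30, 3.10 and 4.00 on control+B12 arrays. That change was 1.62 ± 0.34 (limma adjusted p = 0.00256) and passed without any 1 array.

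Tgfa encodes transforming growth factor alpha. Its signal lay below background on all 16 arrays, from 3.19 to 4.96, so no change could be measured. The fitted differences were 0.07 ± 0.43 without B12 (limma adjusted p = 0.951) and 0.55 ± 0.43 with it (limma adjusted p = 0.453). Among Hbegf, Ereg and Tgfa, the member ligands measured, Hbegf was thus the one above background on every array.

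Errfi1, the inhibitor that binds the receptor's kinase domain, had 15.05, 15.33, 15.53 and 15.02 on H/R arrays, against 13.65, 12.99, 13.40 and 13.30 on control arrays. The log2 change was 1.90 ± 0.17, or 3.73-fold (limma adjusted p = 1.04e-06), and ranked 85 from the highest among the 22206 probe sets. With B12 in both arms the signals were 14.97, 15.24, 14.88 and 14.89 on H/R+B12 arrays, against 13.21, 12.95, 13.14 and 13.36 on control+B12 arrays. All H/R and H/R+B12 arrays were more than 1 log2 unit above all arrays of normal culture. The change with B12 was 1.83 ± 0.17 (limma adjusted p = 1.14e-06).

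Lrig1, a membrane protein that promotes loss of EGF receptors, had 12.20, 12.34, 12.37 and 12.31 on H/R arrays, against 10.86, 10.93, 10.68 and 10.86 on control arrays. The spread within each group was small beside the gap. The log2 change was 1.47 ± 0.12 (limma adjusted p = 7.43e-07). With B12 it had 11.99, 12.06, 11.73 and 11.98 on H/R+B12 arrays, against 11.24, 10.92, 10.98 and 11.18 on control+B12 arrays. These groups did not overlap either, and the change was 0.86 ± 0.12 (limma adjusted p = 0.000122).

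Spry2, a Sprouty inhibitor of RAS and ERK signalling, had 9.47, 9.44, 9.37 and 9.60 on H/R arrays, against 8.27, 8.78, 8.70 and 8.32 on control arrays. The log2 change was 0.96 ± 0.16 (limma adjusted p = 0.000422), with no overlap. With B12 it had 9.38, 9.85, 9.54 and 9.90 on H/R+B12 arrays, against 8.55, 8.79, 8.96 and 8.67 on control+B12 arrays. The groups were apart there too, and the change was 0.93 ± 0.16 (limma adjusted p = 0.000541).

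Spry4, of the same family, was near background, with 2 of 4 H/R arrays and 1 of 4 control arrays above the negative control median, so the size of its change is uncertain. It had 6.12, 5.62, 6.29 and 6.81 on H/R arrays, against 5.35, 5.95, 5.10 and 4.70 on control arrays, and the groups overlapped. The change was 0.94 ± 0.28 (limma adjusted p = 0.0254), lost when replicate 3 or 4 of either group was left out (adjusted p up to 0.0919 over single arrays left out). With B12 the signals were 6.24, 6.07, 5.91 and 6.48 on H/R+B12 arrays, against 5.10, 4.74, 4.78 and 4.19 on control+B12 arrays. All 4 H/R+B12 arrays and 0 control+B12 arrays were above background, and the change was 1.47 ± 0.28 (limma adjusted p = 0.00108).

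Of the 9 genes, 5 had all H/R arrays above all control arrays (9.88% of all probe sets did) and 6 had all H/R+B12 arrays above all control+B12 arrays (10.3%). The calls of Egfr, Errfi1, Lrig1 and Spry2 held in both comparisons in all 23 other settings that kept the same threshold, while Hbegf, Ereg and Spry4 were called in H/R against control only under some. When control 3, H/R 3 or H/R 4 was left out, 4 genes rose in place of 7.

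**Figure D2:**
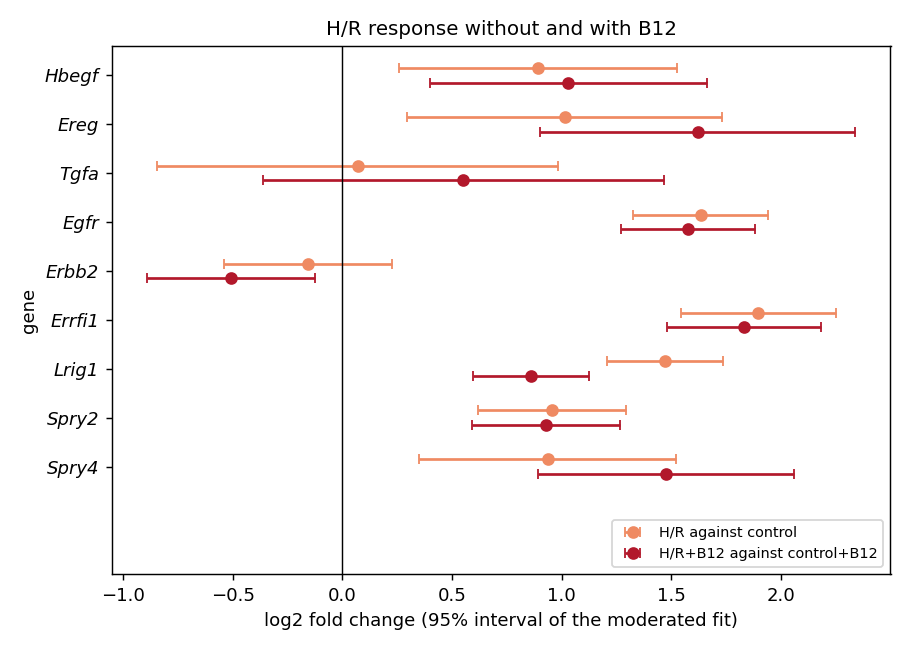
Log2 fold change after H/R of each gene, for H/R against control (orange) and H/R+B12 against control+B12 (red), with 95% intervals of the moderated fit. Errfi1 (1.90 and 1.83) and Egfr (1.63 and 1.58) lie farthest right in H/R against control, the interval of Tgfa spans 0 in both, and Lrig1 is the gene whose intervals lie apart (1.47 and 0.86).

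For none of the 9 genes did a difference between cells with and without B12 pass the adjusted test. In H/R+B12 against H/R, limma called 0 of the 9 genes (0.00% of all probe sets, of which 1010 had an unadjusted p under 0.05), with 1 at an unadjusted p under 0.05. The differences ran from -0.36 for Lrig1 to 0.31 for Ereg. In control+B12 against control it again called 0 of 9 (0.00% of all probe sets, of which 1280 had an unadjusted p under 0.05), with 0 at an unadjusted p under 0.05, 0 wholly above (1.36% of all) or below (1.51%) and differences from -0.57 for Spry4 to 0.25 for Lrig1. With these errors the 95% intervals still allowed differences of some size, for Egfr from -0.48 to 0.14 and for Errfi1 from -0.59 to 0.12 in H/R+B12 against H/R, and for Hbegf from -0.32 to 0.94.

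Lrig1 was the member with a smaller unadjusted p. Its H/R response was 0.86 with B12 and 1.47 without, an interaction of -0.61 ± 0.18 (95% interval -0.98 to -0.24; unadjusted p = 0.00322). After adjustment over all probe sets the interaction did not pass (limma adjusted p = 0.952). All 4 H/R+B12 arrays lay below all 4 H/R arrays (difference -0.36 ± 0.12; limma adjusted p = 1.00), as in 1.49% of all probe sets, and 0 members lay wholly above (1.38%). In control+B12 against control the difference was 0.25 ± 0.12 (limma adjusted p = 0.864), in the opposite direction. Of the 9 interactions 0 passed (0.00% of all probe sets, of which 1071 had an unadjusted p under 0.05), with 1 member at an unadjusted p under 0.05, and Egfr and Errfi1 had values of -0.06 ± 0.20 and -0.07 ± 0.23.

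**Figure D3:**
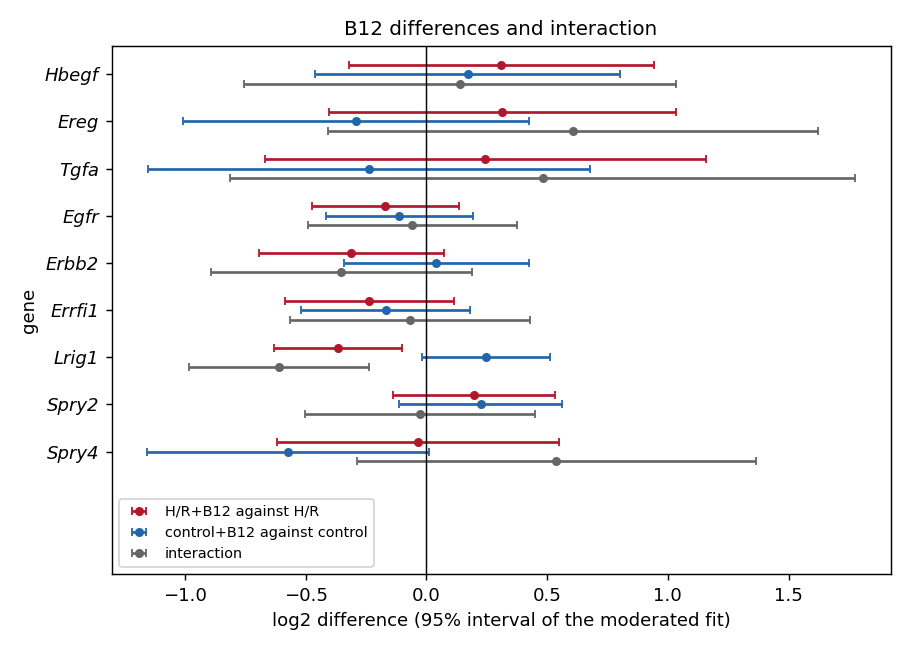
Log2 differences for B12 under H/R (red), for B12 in normal culture (blue) and for the interaction (grey), with 95% intervals of the moderated fit. The intervals of 8 genes span 0 in all 3, and those of Lrig1 lie below 0 for H/R+B12 against H/R (-0.36) and for the interaction (-0.61).

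Other genes of the pathway were taken from lists by role. The counts of these lists stand beside 8.11% of all probe sets higher and 9.54% lower in H/R against control, and 9.04% higher and 9.61% lower with B12 in both arms. These shares, here and below, include the many probe sets below background, which limits what they say about lists of brighter genes. Of 7 other ligands 1 rose and 0 fell after H/R, both without and with B12, a share near the 17.6% and 18.7% of all probe sets called in either direction. Egf, Epgn, Nrg3 and Nrg4 lay below background on all 16 arrays, so no change could be measured for them, and Btc was above it on 1 or 2 arrays of each group. The gene that rose was Nrg1, neuregulin 1, a ligand of ERBB3 and ERBB4. It had 14.59, 14.44, 14.53 and 14.56 on H/R arrays, against 12.39, 12.03, 11.63 and 11.97 on control arrays. Its log2 change of 2.53 ± 0.15 (limma adjusted p = 1.78e-08) stands beside 1.90 for Errfi1, the highest of the 9 genes, and it was 2.21 ± 0.15 with B12 in both arms. The median over the 7 ligands was 0.24 (-0.14 with B12 in both arms), beside -0.02 over all probe sets. Of the receptors Erbb3 and Erbb4, Erbb4 rose by 0.77 ± 0.18 (limma adjusted p = 0.00665), and Erbb3, which was above background on at most 1 array of each group, was at 0.15 ± 0.30 (limma adjusted p = 0.821).

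Of 5 genes of ligand release 3 rose and 1 fell, without and with B12 (8.11% and 9.04% of all probe sets rose, 9.54% and 9.61% fell). The risers were Rhbdf2 (1.29 ± 0.20) and Rhbdf1 (0.74 ± 0.20), the iRhom partners that carry the protease ADAM17 to the cell surface, and Timp3 (0.75 ± 0.17), an inhibitor of that protease. Adam17 itself was at -0.32 ± 0.16 (limma adjusted p = 0.222). Adam10, another releasing protease, fell by 0.51 ± 0.16 on the log2 scale (limma adjusted p = 0.0428), a call lost in 13 of 23 other settings, and in 9 of 23 with B12 in both arms.

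Of 14 other negative regulators 1 rose and 2 fell without B12, and 2 rose and 2 fell with it. These shares are close to the 17.6% and 18.7% of all probe sets that were called. Some relatives of Spry2 and Lrig1 went the opposite way and others did not pass. Lrig2, above background on every array, was at 0.18 ± 0.21 (limma adjusted p = 0.658). Spry3, above background on at most 1 array of each group, was at -0.14 ± 0.29 (limma adjusted p = 0.834). Spry1 fell by 1.01 ± 0.17 on the log2 scale (limma adjusted p = 0.000487), with 8.76, 8.73, 9.01 and 9.33 on H/R arrays, against 9.95, 10.25, 9.70 and 9.96 on control arrays. Spry2 minus Spry1 was 0.27 to 0.71 log2 units on H/R arrays and -1.68 to -1.002 on control arrays. Lrig3, a relative of Lrig1, fell by 0.97 ± 0.24 on the log2 scale (limma adjusted p = 0.00938). Its signal on H/R replicate 2 was 5.83, below the negative control median of 6.21 on that array. Lrig1 minus Lrig3 was 5.17 to 6.51 on H/R arrays, highest on replicate 2, and 2.68 to 3.64 on control arrays. In H/R+B12 against control+B12 the call of Lrig3 was lost in 10 of 23 other settings. Spred1, a Sprouty-related inhibitor, rose by 0.68 ± 0.14 (limma adjusted p = 0.00266). With B12 Socs4 rose as well, by 0.60 ± 0.18 (limma adjusted p = 0.0235, a call lost in 4 of 23 other settings), and without it was at 0.45 ± 0.18 (limma adjusted p = 0.0927).

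Of 16 listed genes of the signal relay 11 were measured, of which 4 rose and 2 fell in H/R against control, and 2 rose and 1 fell with B12 in both arms. Of all probe sets 17.6% and 18.7% were called in these comparisons. The kinases Map2k1 and Map2k2, which both activate ERK, moved apart. Map2k1 rose by 0.79 ± 0.20 (limma adjusted p = 0.0114) and Map2k2 fell by 1.00 ± 0.21 on the log2 scale (limma adjusted p = 0.00275). Map2k1 minus Map2k2 was 0.13 to 0.88 log2 units on H/R arrays and -2.08 to -1.01 on control arrays. With B12 it was -0.40 to 0.42 on H/R+B12 arrays and -1.70 to -1.19 on control+B12 arrays. In that comparison the call of Map2k2 was lost in 7 and that of Map2k1 in 3 of 23 other settings. The RAF kinases also differed, with Braf at 0.59 ± 0.13 (limma adjusted p = 0.00394) and Araf at -0.37 ± 0.11 (limma adjusted p = 0.0279). Nras (0.51 ± 0.16) and the adaptor Gab1 (0.41 ± 0.13) rose as well, and the calls of Araf, Nras and Gab1 were each lost in 7 of 23 other settings. The gene pairs set side by side here and above were chosen after their values were seen.

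**Figure D4:**
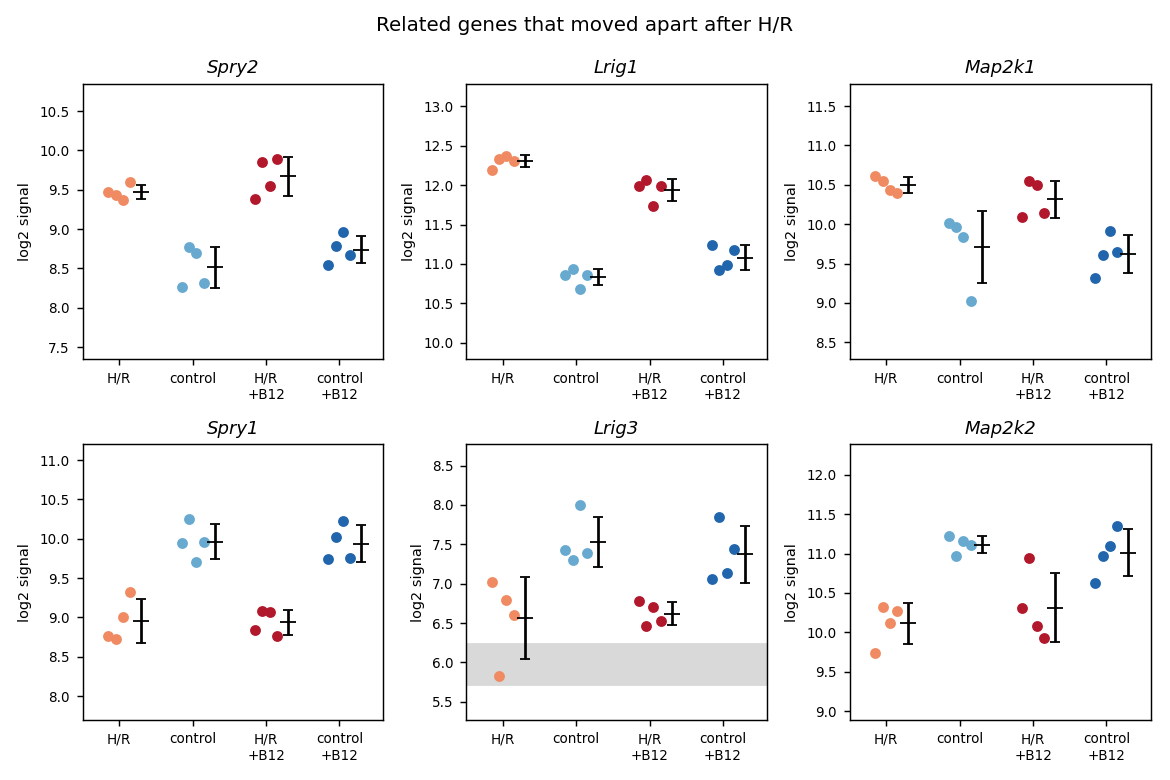
Log2 signal of related genes on each array, with Spry2, Lrig1 and Map2k1 above Spry1, Lrig3 and Map2k2; points are arrays, the dash with bars is the mean ± SD of 4 arrays, and the grey band marks the negative control medians. On H/R arrays the upper genes are higher and the lower genes lower than on control arrays, with no overlap between those groups.

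Of 10 genes often used as readouts of ERK activity 9 were measured, of which 6 rose and 1 fell in H/R against control, and 6 rose and 0 fell with B12 in both arms. Of all probe sets 8.11% rose and 9.54% fell without B12, and 9.04% rose and 9.61% fell with it. The median change of the 9 was 0.94 without B12 and 1.08 with it, beside -0.02 and -0.04 over all probe sets. Spry2 and Spry4 are among them and were already counted as members. The list was written with earlier results of these data known. In H/R against control, Dusp4 (0.31 ± 0.24, limma adjusted p = 0.469) and Etv5 (-0.18 ± 0.34, limma adjusted p = 0.816) did not pass. Both were above background on every array. Epha2, a receptor for ephrins, had 11.99, 12.24, 12.29 and 12.17 on H/R arrays, against 9.60, 9.16, 8.82 and 9.39 on control arrays, a log2 change of 2.93 ± 0.18 (limma adjusted p = 3.25e-08). Phlda1 rose by 1.37 ± 0.20 (limma adjusted p = 0.000119), and Dusp6, a phosphatase that switches off ERK, by 1.28 ± 0.14 (limma adjusted p = 8.59e-06). Epha4, a second ephrin receptor, rose by 0.77 ± 0.18 (limma adjusted p = 0.00517). The transcription factor Etv4 fell by 0.90 ± 0.22 on the log2 scale (limma adjusted p = 0.00775), with all 4 H/R arrays below background. With B12 in both arms Etv4 was at -0.31 ± 0.22 (limma adjusted p = 0.39), and its interaction did not pass. All arrays of those groups lay below background too, so a fall could not be measured there. The control+B12 arrays of Etv4 lay wholly below the control arrays, as in 1.51% of all probe sets. That difference was -0.78 ± 0.22 (limma adjusted p = 0.762). Of the genes of these 6 lists 0 were called by limma between cells with and without B12, in either culture, or in the interaction.

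**Figure D5:**
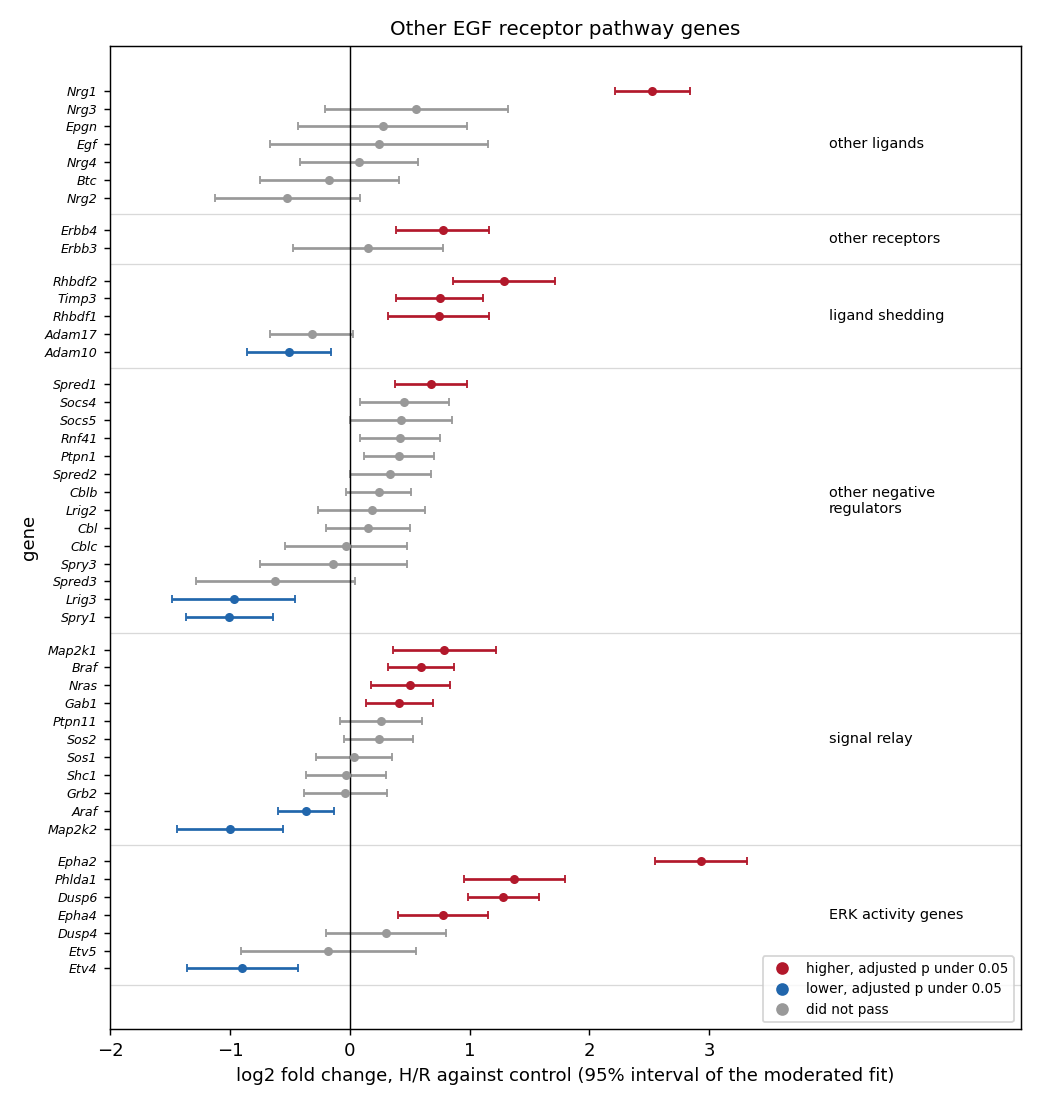
Log2 fold change in H/R against control of the other pathway genes, by role, with 95% intervals of the moderated fit; red marks genes higher and blue genes lower at an adjusted p under 0.05, grey those that did not pass. Epha2 (2.93) and Nrg1 (2.53) lie farthest right, and Spry1 (-1.01) and Map2k2 (-1.001) farthest left among the called genes.

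The genes whose log2 signal followed Errfi1 most closely over the 16 arrays were Atf4 (Pearson r = 0.990), Kctd5 (0.990) and Nampt (0.987). After the group means were removed, Psd (0.894), Nampt (0.884) and Armc9 (0.877) were closest. For Ereg, the ligand among the 9 genes with the widest range of group means, the closest were Tfb2m (0.939), Usp42 (0.923) and Src (0.914), and after removal of group means Nrk (0.912), Tfb2m (0.876) and Src (0.854). Ereg was above background on only 1 H/R and 1 H/R+B12 array, so its correlations rest mostly on signal below background. The arrays fall into H/R and control clusters, so the first of each set of values mostly follows that split, and these are descriptions picked as the highest of all genes, with no test.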

How the data were processed

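The values are the log2 signals that the authors deposited for 28846 features on 16 arrays. Per the submitters' processing notes, Affymetrix Expression Console with robust multi-array averaging (RMA) and the Transcriptome Analysis Console were used. The genome build is not given in the sources used here. RMA brings the arrays close to a common distribution, so an overall shift of RNA may be hidden. The mean array median still differed by -0.072 log2 units in H/R against control, and by -0.085 with B12 in both arms. The cause of that difference was not tested. Control features (6640) were left out. A 4-group linear model was fitted to the other 22206 probe sets with limma (version 3.58.1, R 4.3.3), and two-sided p-values were adjusted over all of them by Benjamini and Hochberg (threshold 0.05). The fit was tested on simulated data with known changes and independent errors, which does not cover effects shared between arrays. Errors of fold changes are moderated standard errors. The platform annotation gave 19572 probe sets 1 symbol, 0 several and 2634 none. The 9 members were always named. From each other list the text names up to 4 called genes with the smallest p in H/R against control and those called in another comparison. Erbb3, Adam17, Gab1, Nras, Etv4, Etv5, Dusp4, Lrig2, Spry3 and the marker genes fall outside that rule and were named after their values were seen. The same holds for Egf, Btc, Epgn, Nrg3 and Nrg4. Members, lists and rules were chosen with earlier results of these data known. Other settings were the replicate number as a block, only the compared groups in the fit, a variance trend on intensity, weights per array, a filter on the dimmest 25%, quantile scaling, centring by array median, a 2-fold minimum, and each array omitted in turn. The labels do not say that a replicate number marks a shared culture or day, so numbers were not taken to pair samples. Over the 22206 probe sets, deviations from group means had r = -0.07 to 0.08 over 24 same-numbered pairs, and -0.08 to 0.07 over 72 others. Replicate 1 nevertheless had the highest negative control median of each group (control 6.10, control+B12 6.08, H/R 6.23, H/R+B12 6.17). Whether same-numbered arrays shared a culture or a run was not tested. Plots used Python 3.11.15 and matplotlib 3.10.9.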

Additional observations from a re-analysis of the deposited data

How the results depend on the processing

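In H/R against control 7 of 9 genes rose; with a 2-fold minimum added 4 did, and 4 to 7 with each of the 16 arrays left out in turn. With the replicate number as a block the count was 5, since Hbegf (adjusted p = 0.0606) and Ereg (adjusted p = 0.0742) no longer passed, and the block changed no other call of a member. With only the groups compared, Spry4 in H/R against control (adjusted p = 0.0612) and Hbegf in H/R+B12 against control+B12 (adjusted p = 0.0616) no longer passed. Erbb2 in H/R+B12 against control+B12, -0.51, passed with an intensity trend (adjusted p = 0.0324) and without the dimmest 25% (adjusted p = 0.0433). The cause was not tested in any of these. Differences near 0 that passed in no setting turned sign. With array weights Spry4 in H/R+B12 against H/R was 0.0029 and the interaction of Spry2 was 0.0022. With single arrays left out the interactions ran from -0.15 to 0.027 for Egfr, -0.17 to 0.049 for Errfi1, -0.063 to 0.39 for Hbegf and -0.11 to 0.068 for Spry2. In control+B12 against control they ran from -0.070 to 0.11 for Erbb2, -0.50 to 0.011 for Ereg and -0.077 to 0.37 for Hbegf. Tgfa ran from -0.22 to 0.35 in H/R against control and, in H/R+B12 against H/R, from -0.033 to 0.54, where Spry4 ran from -0.23 to 0.17. No member had several probe sets, so the alternative for such genes gave no value. Signals near the negative controls (Ereg, Tgfa, Spry4, Etv4) limit what their changes can show.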
